A study of Mus musculus with 6 samples.

Results

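Glycolysis splits glucose into pyruvate in the cytosol, and lactate dehydrogenase turns pyruvate into lactate when it does not enter mitochondria. The 10 genes described here, Hk1, Hk2, Gpi1, Pfkp, Aldoa, Pgk1, Eno1, Pkm, Ldha and Ldhb, encode enzymes that act along this route, and were taken by name from the 31053 gene identifiers of the count table. One identifier with counts was found for each gene. A second identifier that the annotation also names Aldoa was at 0 counts in all 5 libraries and was not used. RNA-seq was performed on cerebellum of wild-type (WT) mice, with 2 libraries analysed, and of knock-in knock-out (KIKO) mice, with 3 libraries. KIKO mice serve as a model of Friedreich ataxia, an inherited neurodegenerative disease. No treatment is named in the labels of either group, and the labels state neither age nor sex. WT replicate 3 was not analysed here. The study describes sorting CD45+/CD11b+ cells, which it treats as macrophages and microglia, from the cerebellum, whereas the labels name only the tissue. Both microglial and neuronal transcripts were present. Cx3cr1, a microglial chemokine receptor, was at 651 to 1184 normalized CPM, the count scaled to the size of its library, and Snap25, a synaptic protein of neurons, at 577 to 750 CPM across the 5 libraries.

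The early steps of glycolysis use ATP. Hexokinases (Hk1, Hk2) phosphorylate glucose, glucose-6-phosphate isomerase (Gpi1) converts the product to fructose 6-phosphate, phosphofructokinase (Pfkp is its platelet isozyme) commits it to breakdown, and aldolase (Aldoa) splits it. The later steps regain ATP through phosphoglycerate kinase (Pgk1) and pyruvate kinase (Pkm), with enolase (Eno1) between them. Lactate dehydrogenase is a tetramer of A and B subunits (Ldha, Ldhb). In brain, glycolytic enzymes are found in all cell types, and activated microglia are known for a shift towards glycolysis and lactate release, often through the transcription factor HIF1.

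The libraries held 1013107 to 1351339 counts each, so that 3 counts corresponded to 2.28 to 3.04 CPM. KIKO replicate 2 stood apart from the rest. Its correlation of log2 CPM over the 10889 genes tested was 0.672 to 0.747 with the other libraries, which correlated at 0.884 to 0.931 among themselves. It lay outside the range of the 4 other libraries in 71.0% of all genes tested, and fold changes, medians and share differences are therefore also given without it. Its 12 microglia markers summed to 12110 CPM, against 4752 to 6891 CPM in the other libraries, and all 12 had a count in every library. Its 7 neuron markers summed to 2128 CPM against 2906 to 4571 CPM, its 5 oligodendrocyte markers to 17090 against 4112 to 10620 CPM, and its 4 choroid plexus markers to 14130 against 6603 to 11640 CPM. The part of these marker levels in the values below was not tested.

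None of the 9 glycolysis and lactate genes with enough counts to test passed the thresholds between KIKO and WT, which were a log2 fold change over 0.75 in size and an unadjusted p under 0.05. Over all genes tested, 131 of 10889 did (1.2%), and 0 had an adjusted p under 0.05 (edgeR's quasi-likelihood test with Benjamini-Hochberg adjustment over all genes, used throughout). DESeq2 called 0 of the 9 as well, with 136 genes called in all (1.25%) and 0 at an adjusted p under 0.05. Each of the 9 had an unadjusted p above 0.05 and an adjusted p of 1.0. Of the 9, 6 had a log2 fold change above 0 and 3 below, with a median of 0.09 beside 0.02 over all genes. The libraries of the genotypes overlapped in all 9, while they were separate in 16.7% of all genes tested. With all 5 libraries, no gene's 95% interval lay wholly within the fold change threshold on both sides. Without KIKO replicate 2, those of Gpi1, Pkm and Ldhb did (Gpi1 -0.50 to 0.54, Pkm -0.33 to 0.72, Ldhb -0.73 to 0.46). The median log2 fold change was then 0.16, beside -0.01 over all genes. Without KIKO replicate 2, Eno1 alone passed the thresholds, as did 693 of 10889 genes (6.36%). The KIKO and WT libraries were then separate in 5 of the 9, beside 38.5% of all genes. Since the libraries are bulk samples, whether of tissue or of sorted cells, fewer cells of a type and less RNA per cell cannot be told apart.

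**Figure D1:**
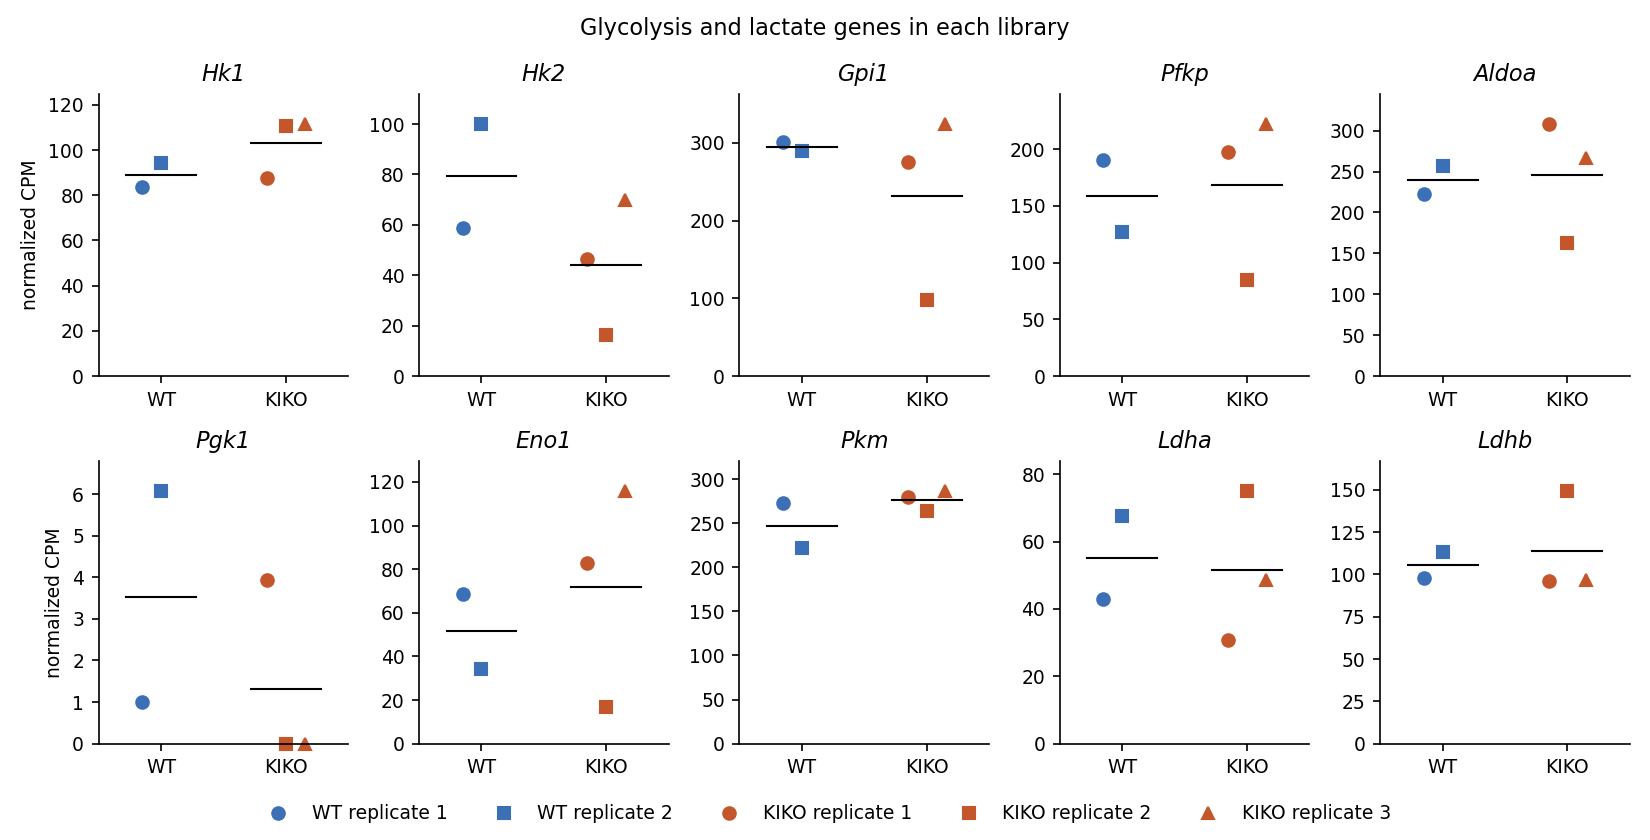
Normalized CPM (vertical axes, each from 0) of the 10 genes in the 2 WT and 3 KIKO libraries, with 1 point a library and a bar at each group mean. KIKO replicate 2 is the lowest library for Hk2, Gpi1, Pfkp, Aldoa and Eno1, and the highest for Ldha and Ldhb, and Pgk1 has at most 8 counts in a library.

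Hk1, the hexokinase of most brain cells, was at 83.7 and 94.1 CPM in the WT libraries and at 87.5, 111 and 112 CPM in KIKO replicates 1, 2 and 3. KIKO replicate 1 lay between the WT libraries, and the other two lay above them. The log2 fold change was 0.22 (SE 0.35, 95% interval -0.59 to 1.02), and it was 0.16 (SE 0.30) without KIKO replicate 2. Hk1 lies on chromosome 10 (62268855 to 62379908, minus strand, mm10).

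Hk2, the inducible hexokinase, was at 58.8 and 100 CPM in WT and at 46.5, 16.2 and 70.0 CPM in KIKO. KIKO replicates 1 and 2 were below both WT libraries, and KIKO replicate 3 lay between them. The group means were 79.4 ± 29.2 CPM (SD, n = 2) in WT and 44.3 ± 27.0 CPM (SD, n = 3) in KIKO. Its log2 fold change of -0.85 was the largest in size of the 9 genes (SE 0.59, 95% interval -2.21 to 0.50). KIKO replicate 2 was at 23.6% of the mean of the other libraries, and without it the log2 fold change was -0.47 (SE 0.34, 95% interval -1.15 to 0.22). Hk2 (chromosome 6, 82725025 to 82774454, minus strand) shared no stretch of read length with another gene, and no exon base with a neighbour. It had 21 to 132 counts per library.

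Gpi1 (chromosome 7, 34201330 to 34230336, minus strand) was at 301 and 290 CPM in WT and at 275, 97.4 and 325 CPM in KIKO. The 4 libraries other than KIKO replicate 2 lay close together, and that library was at 32.7% of their mean. With it the log2 fold change was -0.35 (SE 0.51, 95% interval -1.51 to 0.82), and 0.02 (SE 0.26, 95% interval -0.50 to 0.54) without. An antisense gene, Gm26762, covers 11.5% of the exon bases of Gpi1 and had 0 counts in every library.

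Pfkp (chromosome 13, 6579768 to 6648777, minus strand) was at 190 and 127 CPM in WT and at 197, 85.0 and 222 CPM in KIKO. KIKO replicates 1 and 3 were the highest of the 5 libraries, and KIKO replicate 2 was the lowest. The log2 fold change was 0.09 (SE 0.48, 95% interval -1.01 to 1.18). It was 0.41 (SE 0.28, 95% interval -0.15 to 0.96) without KIKO replicate 2.

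Aldoa (chromosome 7, 126795234 to 126800751, minus strand) was at 223 and 257 CPM in WT and at 308, 162 and 267 CPM in KIKO. As for Pfkp, KIKO replicates 1 and 3 were above both WT libraries and KIKO replicate 2 below them. Over all libraries the log2 fold change was 0.03 (SE 0.40, 95% interval -0.88 to 0.95), and 0.26 (SE 0.26) without KIKO replicate 2. For Aldoa as for Pfkp, the log2 fold change over all 5 libraries was smaller than its standard error.

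Pgk1 (chromosome X, 106187100 to 106203699, plus strand), which encodes the enzyme of the first ATP-yielding step, was almost uncounted. It had 1 and 8 counts in WT and 5, 0 and 0 counts in KIKO, and was not tested. The 2 KIKO libraries with a count of 0 allow up to 3 counts, or 2.32 CPM in KIKO replicate 2 and 3.04 CPM in KIKO replicate 3, for counting error alone.

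Of all stretches of 75 bases in Pgk1 transcripts, 52.8% stood in at least 1 other annotated gene. All stretches counted alike, and where along the transcripts the reads fell was not examined, so this is not a share of reads. The sources used here do not state what was done with reads that map to several places. If they were not counted, the Pgk1 counts cover only part of its transcripts, and the low counts are no measure of its expression. The same share was 23.0% for Eno1, 17.8% for Pkm, 12.6% for Ldhb and 10.8% for Gpi1, and 0.0% to 4.9% for Hk1, Hk2, Pfkp, Aldoa and Ldha. For this reason, and because the sources differ on the library kit, no levels were compared between genes, other than as shares of counts within enzyme families. Those shares carry the same limits, and they are compared between libraries only.

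Eno1 (chromosome 4, 150236721 to 150248879, plus strand), the enolase found in most cells, was at 68.7 and 34.1 CPM in WT and at 82.8, 17.0 and 116 CPM in KIKO. The KIKO libraries held both the lowest and the highest of the 5 values. Its log2 fold change of 0.48 had the widest interval of the 9 genes (SE 0.73, 95% interval -1.18 to 2.14). KIKO replicate 2 was at 22.6% of the mean of the others. Without it Eno1 was higher in KIKO, with a log2 fold change of 0.96 (SE 0.34, 95% interval 0.27 to 1.65, adjusted p = 0.414). In that comparison of 2 with 2 libraries, 2.92% of all genes passed as higher. WT itself spanned 34.1 to 68.7 CPM. Eno1b, the copy of Eno1 that has its own identifier in the table, had 1 count in all libraries together.

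Pkm (chromosome 9, 59656368 to 59679375, plus strand), whose product makes pyruvate, varied little in KIKO, with a mean of 277 ± 11.2 CPM (SD, n = 3) against 247 ± 36.4 CPM (SD, n = 2) in WT. It was at 273 and 221 CPM in WT and at 279, 264 and 286 CPM in KIKO. KIKO replicate 2 lay between the WT libraries here, at 99.8% of the mean of the others, and the other KIKO libraries were just above both. The log2 fold change was 0.16 (SE 0.35, 95% interval -0.63 to 0.96) and 0.20 (SE 0.26) without KIKO replicate 2. Counts per gene do not separate the M1 and M2 splice forms of Pkm, which differ in 1 exon.

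Ldha (chromosome 7, 46841475 to 46855627, plus strand), the subunit associated with lactate production, was at 42.8 and 67.5 CPM in WT and at 30.8, 74.96 and 48.7 CPM in KIKO. KIKO libraries were again at both ends, but with KIKO replicate 2 the highest. Ldha had a log2 fold change of -0.10 (SE 0.49, 95% interval -1.22 to 1.02), and of -0.50 (SE 0.37, 95% interval -1.25 to 0.26) without that library.

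Ldhb (chromosome 6, 142490249 to 142507957, minus strand), the subunit associated with lactate use, was at 97.6 and 113 CPM in WT and at 96.2, 149 and 96.4 CPM in KIKO. KIKO replicates 1 and 3 lay just below WT and KIKO replicate 2 above it. Ldhb had a log2 fold change of 0.11 (SE 0.38, 95% interval -0.75 to 0.98) with all libraries and of -0.13 (SE 0.29) without KIKO replicate 2.

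**Figure D2:**
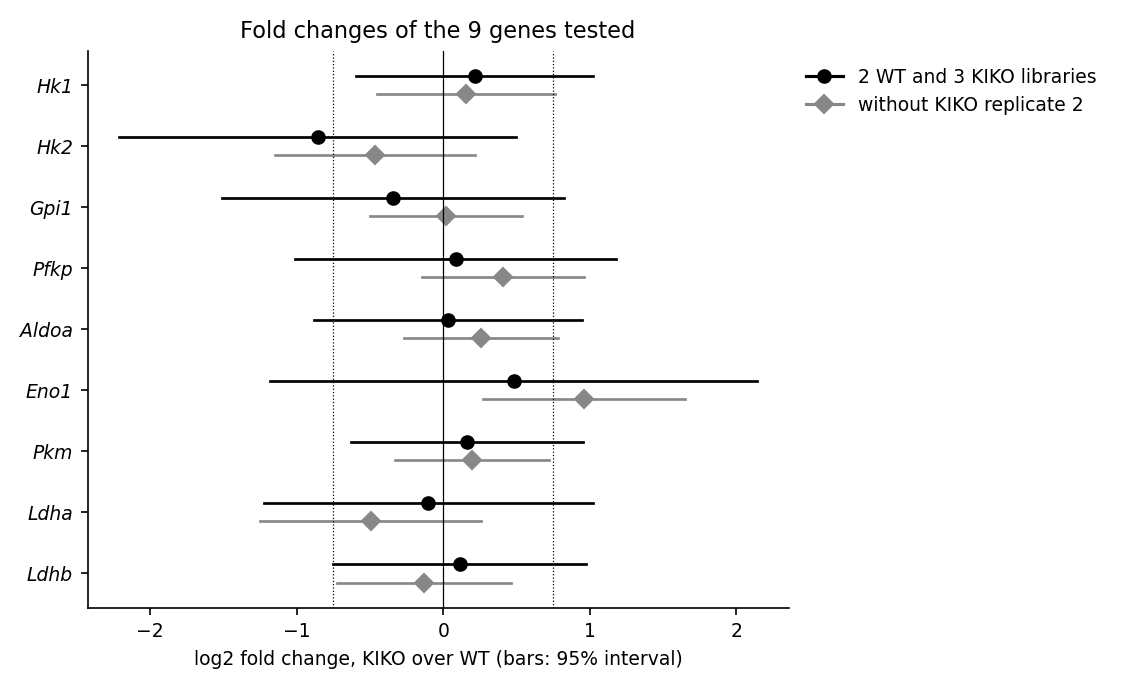
Log2 fold change of KIKO over WT (horizontal axis) for the 9 genes tested, with all 5 libraries (black circles) and without KIKO replicate 2 (grey diamonds). Lines are 95% intervals and dotted lines mark the threshold of 0.75, and every black interval spans 0, whereas the grey interval of Eno1 (0.27 to 1.65) does not.

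KIKO replicate 2 was below the 4 other libraries in 5 of the 9 genes (37.1% of all genes) and above them in 2 (33.9% of all genes). Both subunits of lactate dehydrogenase were above, and the genes below were Hk2, Gpi1, Pfkp, Aldoa and Eno1. Together the 10 genes held 0.129% and 0.128% of the counts in WT and 0.139%, 0.102% and 0.15% in KIKO. The KIKO group thus had both the lowest and the highest sum. The difference of the group means was 0.00209 percentage points (exact permutation test, two-sided, p = 1.0, smallest possible p 0.1), and it was 0.0164 points without KIKO replicate 2 (p = 0.333, the smallest that 2 against 2 libraries allow).

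Promoters of the genes were searched for ACGTG, a form of the core of the HIF1 response element, on both strands, with overlapping matches counted as 1 site. Other forms of the core were not searched. RefSeq windows of 300 bases (250 before to 50 after a start, GRCm38.p6) were found for all 10 genes. A site stood in 6 of the 10 genes, namely Hk1, Hk2, Aldoa, Pgk1, Pkm and Ldha, and in 21.8% of all 27025 genes with a window. By window, 41.2% of the 17 windows of these genes held a site and 19.6% of all 32851 windows. The 250 bases before the start of Hk2 and of 1 of the 2 Ldha windows are shown, because both genes are textbook targets of HIF1, and capitals mark the matches. Ldha had 3 sites, a number reached by 0.414% of all windows, and Hk2 had 2. Matched letters are a description and not a measured binding site.
Hk2, chr6:82774455-82774704, minus strand: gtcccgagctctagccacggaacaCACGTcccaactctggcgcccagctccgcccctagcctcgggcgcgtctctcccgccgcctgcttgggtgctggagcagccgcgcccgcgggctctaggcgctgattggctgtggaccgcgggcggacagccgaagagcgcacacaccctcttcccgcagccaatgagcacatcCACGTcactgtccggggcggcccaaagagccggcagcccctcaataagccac
Ldha, chr7:46845554-46845803, plus strand: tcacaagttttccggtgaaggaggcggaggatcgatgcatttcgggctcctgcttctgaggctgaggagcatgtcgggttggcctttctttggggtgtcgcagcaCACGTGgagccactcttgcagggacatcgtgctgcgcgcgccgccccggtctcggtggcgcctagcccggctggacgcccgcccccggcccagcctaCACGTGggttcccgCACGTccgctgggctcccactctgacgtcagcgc

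Beside these windows, KIKO replicate 2 had the lowest CPM of the 5 libraries for Hk2 and the highest for Ldha. Hif1a, which encodes the regulated subunit of HIF1, was at 88.7 and 72.1 CPM in WT and at 68.6, 75.7 and 58.9 CPM in KIKO, with a log2 fold change of -0.24 (adjusted p = 1.0, and -0.33 without KIKO replicate 2), and it is named here after its values were seen.

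At 5 of the steps isozymes share the work. The families were taken as Hk1, Hk2 and Hk3, as Pfkp, Pfkl and Pfkm, as Aldoa and Aldoc, as Eno1 and Eno2, and as Ldha and Ldhb, without Eno3 and other isozymes. The share of each in the counts of its family, taken here without regard to transcript length, does not depend on how libraries are scaled. Hk2 made up 39.9% and 50.2% of the Hk1, Hk2 and Hk3 counts in WT, against 33.7%, 11.1% and 37.9% in KIKO. All 3 KIKO libraries were below both WT libraries. The difference of the means was -17.5 percentage points (exact permutation test, two-sided, p = 0.2, adjusted p = 0.7 over 5 families), which 2 against 3 libraries cannot bring under p = 0.1. It was -9.21 points without KIKO replicate 2. In that library the 95% Wilson interval of the share, 7.34% to 16.3%, lay below the shares of all other libraries. The intervals cover counting error only. The remaining counts of this family of that library were split between Hk1, with 75.3%, and Hk3, a hexokinase of myeloid cells, with 13.7%. Hk3 had 26 counts there and 5, 7, 5 and 3 in WT replicates 1 and 2 and KIKO replicates 1 and 3, and was not tested.

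Eno1 made up 15.1% and 10.9% of the summed Eno1 and Eno2 counts in WT and 20.0%, 6.36% and 30.0% in KIKO. The order is that of the Eno1 level itself. Eno2, the neuronal enolase, was at 388 and 278 CPM in WT and at 330, 250 and 270 CPM in KIKO (log2 fold change -0.23, adjusted p = 1.0, and -0.14 without KIKO replicate 2). Eno3, the muscle enolase, was outside this sum, at 20.9 and 29.6 CPM in WT and at 14.2, 24.7 and 17.3 CPM in KIKO (log2 fold change -0.43, adjusted p = 1.0, and -0.70 without KIKO replicate 2). The difference in share was 5.79 points (exact p = 0.6) and was 12 points without KIKO replicate 2 (exact p = 0.333). In KIKO replicate 2, Eno2 held 93.6% of the summed counts, its highest share, while the summed neuron markers were the lowest of all libraries. The part of cell composition was not tested.

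Shares of the other families overlapped between the genotypes. Ldha held 30.5% and 37.4% of the Ldha and Ldhb counts in WT and 24.2%, 33.4% and 33.6% in KIKO, a difference of -3.53 points (exact p = 0.6) and of -5.05 points without KIKO replicate 2. Pfkp held 72.3% and 65.5% of the Pfkp, Pfkl and Pfkm counts in WT and 69.6%, 62.9% and 68.4% in KIKO (-1.94 points, exact p = 0.7). Without KIKO replicate 2 the sign of that difference turned, to 0.118 points. Aldoa held 73.7% and 62.2% of the Aldoa and Aldoc counts in WT and 63.3%, 53.4% and 66.6% in KIKO (-6.85 points, exact p = 0.5, and -3.02 points without KIKO replicate 2). Pfkl and Pfkm, the liver and muscle phosphofructokinases, had log2 fold changes of 0.17 and 0.20, and Aldoc, the aldolase of astrocytes and Purkinje neurons, of 0.36, each with an adjusted p of 1.0. Without KIKO replicate 2 the values were 0.29 for Pfkl, 0.53 for Pfkm and 0.40 for Aldoc.

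**Figure D3:**
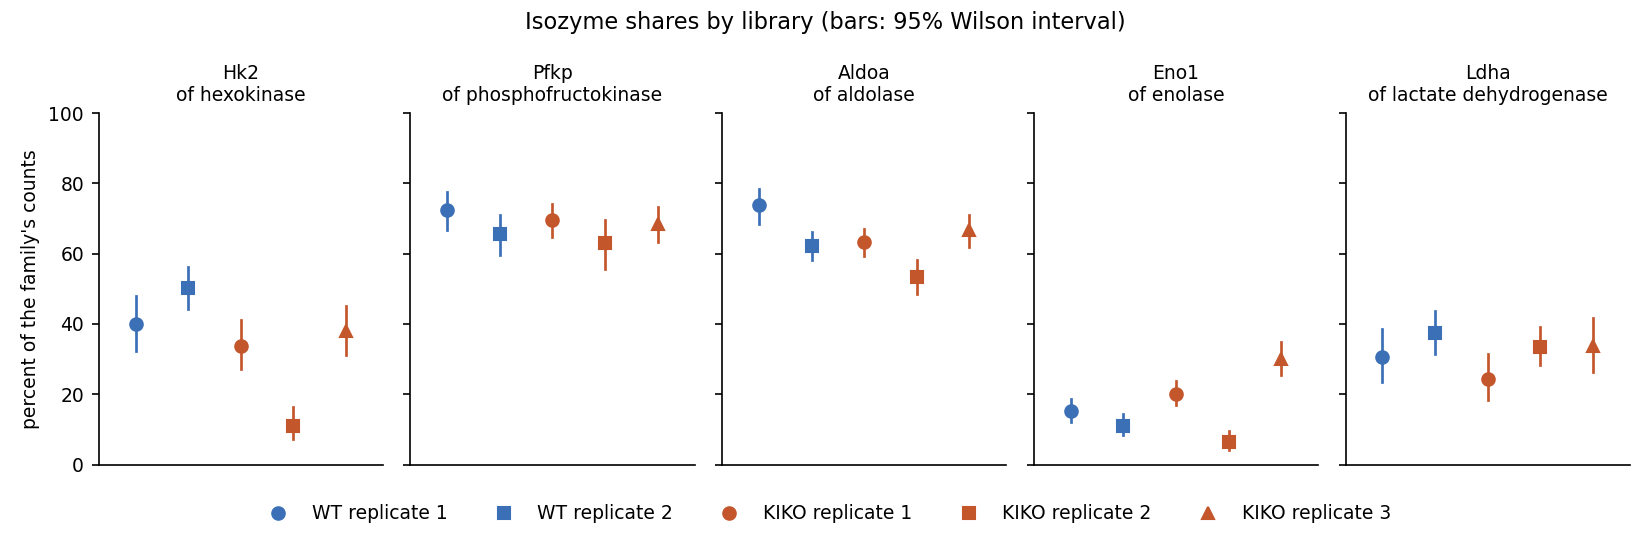
Percent of a family's counts held by 1 isozyme (families as listed in the text, without Eno3 and other isozymes, vertical axes, 0 to 100) in each of the 5 libraries, with 95% Wilson intervals as bars. The Hk2 share is below both WT libraries in all 3 KIKO libraries and lowest in KIKO replicate 2 (11.1%), and the other 4 shares overlap between the genotypes.

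The steps before, beside and after these enzymes were described with 8 lists of 99 genes, 78 of them tested. None passed the thresholds or had an unadjusted p under 0.05 (1.2% of all genes did), and DESeq2 also called 0. The libraries of the genotypes were separate in 10 of the 78, beside 16.7% of all genes. Of the 78, 53 had a log2 fold change above 0 and 25 below, and without KIKO replicate 2 the numbers were 47 and 31. In that comparison 3 of the 78 passed (6.36% of all genes), Pdk2 higher and Slc16a7 and Ugp2 lower in KIKO. None of the 3 had an adjusted p under 0.05.

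Among 11 tested of 20 other enzymes of glycolysis and lactate production, the median log2 fold change was 0.17 beside 0.02 over all genes (0.18 and -0.01 without KIKO replicate 2). Ldhd, a mitochondrial D-lactate dehydrogenase, had the smallest p (log2 fold change 1.53, adjusted p = 1.0, and 1.93 without KIKO replicate 2). It was at 1.99 and 3.79 CPM in WT and at 11.04, 3.09 and 12.2 CPM in KIKO. The WT values stand for 2 and 5 counts, and the antisense neighbour Znrf1 covers 42.2% of the exon bases of Ldhd. Among 13 tested of 14 glucose and lactate transporters (median 0.25, and 0.08 without KIKO replicate 2), Slc16a7 had the smallest p. It encodes MCT2, the monocarboxylate transporter through which neurons take up lactate. Slc16a7 was at 17.9 and 22.8 CPM in WT and at 6.31, 8.50 and 8.12 CPM in KIKO, with all KIKO libraries below both WT libraries. Its log2 fold change was -1.40 (SE 0.64, adjusted p = 1.0), short of the threshold on p, and -1.50 without KIKO replicate 2.

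Pyruvate that is not made into lactate can enter mitochondria, where pyruvate dehydrogenase acts on it. Pyruvate dehydrogenase kinases switch that enzyme off. Of this list 12 of 14 genes were tested (median 0.20, and 0.23 without KIKO replicate 2). Pdk2, 1 of those kinases, was at 41.8 and 25.8 CPM in WT and at 78.1, 60.3 and 60.9 CPM in KIKO. All KIKO libraries were above both WT libraries, KIKO replicate 2 among them. Pdk2 had a log2 fold change of 0.98 (SE 0.43, adjusted p = 1.0), again short of the threshold on p, and of 1.06 (SE 0.37, adjusted p = 0.385) without KIKO replicate 2.

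The median of the 9 genes of the shuttles that pass cytosolic NADH to mitochondria was 0.21, and 0.13 without KIKO replicate 2. Mdh1, the cytosolic malate dehydrogenase, was at 111 and 129 CPM in WT and at 148, 485 and 115 CPM in KIKO, so that its log2 fold change of 1.06 (adjusted p = 1.0) was 0.13 without KIKO replicate 2. Of 10 glycogen genes, 9 were tested (median 0.32, and 0.55 without KIKO replicate 2). Ugp2, which makes the glucose donor of glycogen, was at 44.8 and 15.9 CPM in WT and at 14.2, 22.4 and 9.13 CPM in KIKO, with WT replicate 1 far above the rest (log2 fold change -0.97, and -1.33 without KIKO replicate 2). All 10 genes of the pentose phosphate pathway, which branches off after hexokinase, were tested (median 0.18, and 0.16 without KIKO replicate 2). The smallest p was that of Prps2 (log2 fold change 0.73, and 0.38 without KIKO replicate 2), which makes the ribose donor of nucleotides. Of 7 regulators of fructose 2,6-bisphosphate and fructose bisphosphatases, 3 were tested, with a median of -0.06 that turned to 0.27 without KIKO replicate 2. Tigar, which lowers that activator of phosphofructokinase, had a log2 fold change of 1.0 (1.47 without KIKO replicate 2) from 0 and 8.34 CPM in WT and 15.8, 1.55 and 9.13 CPM in KIKO.

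Among HIF1, its regulators and its targets outside glycolysis, 11 of 15 genes were tested. Their median was 0.17, with 6 above 0 and 5 below, and it was -0.22 without KIKO replicate 2, with 3 above 0 and 8 below. That library lay above the 4 others in 7 of the 11, beside 33.9% of all genes tested. Bnip3, a mitophagy receptor induced by HIF1, was at 9.96 and 19.7 CPM in WT and at 12.6, 61.1 and 17.3 CPM in KIKO. Its log2 fold change was 1.02 (adjusted p = 1.0) and -0.02 without KIKO replicate 2.

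**Figure D4:**
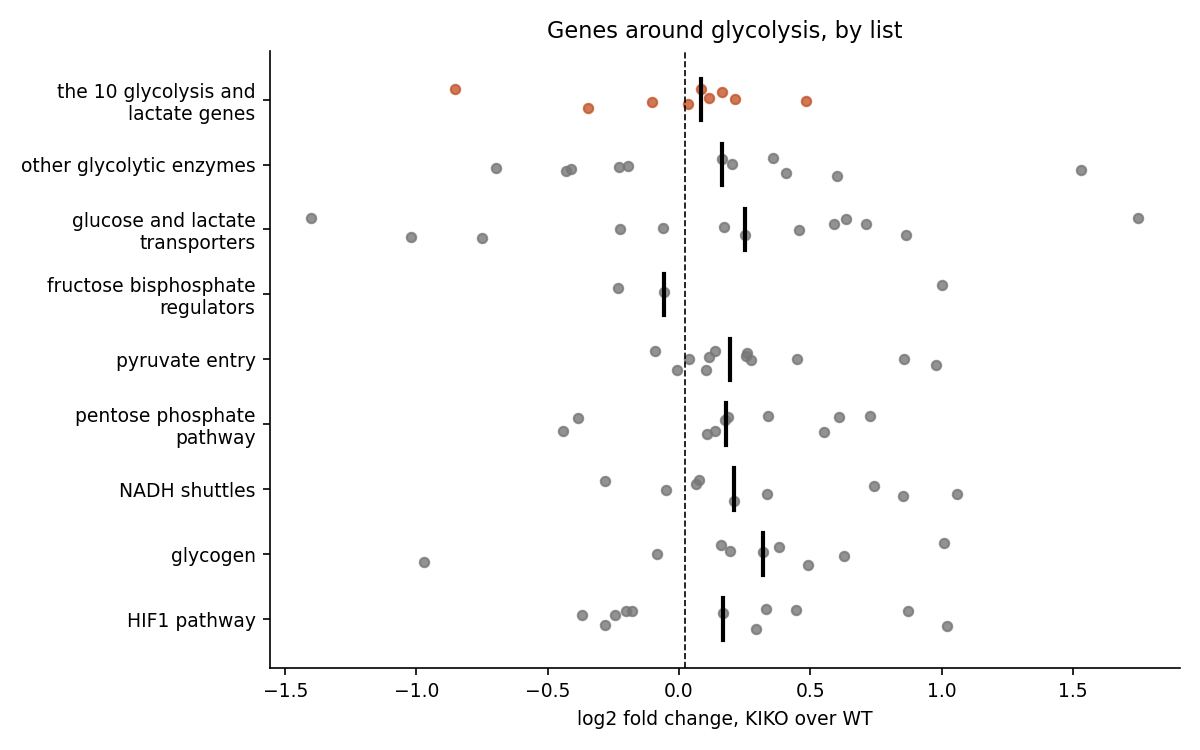
Log2 fold change of KIKO over WT (horizontal axis) for each tested gene of the 10 glycolysis and lactate genes (orange) and of 8 lists of surrounding genes (grey), with a black bar at each list's median. The dashed line is the median of all genes tested (0.02), and the medians lie between -0.06 and 0.32.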

How the data were processed

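Bulk RNA-seq libraries of cerebellum were grouped by genotype (2 WT, 3 KIKO), and their columns were found by name. The design assumed 3 WT samples, and WT replicate 3 was not analysed here, so that the comparison became 2 against 3. The check of the gene targeted in KIKO mice and 1 sequence are not reported here. Another 2 per-sample columns of the count table, named for butyrate, match no label and were not used. Reads were trimmed (Trimmomatic) and aligned to mm10 (HISAT2) by the authors, who deposited unnormalized whole-number counts per gene from featureCounts. The deposited log2 values are log2(count / DESeq2 size factor + 1). The gene annotation, strand setting and treatment of reads with several alignments are not given in the sources used here. The study names the NEGEDIA Digital mRNA-seq service, read single-end over 75 cycles, whereas the labels name a stranded kit.

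Counts were fitted across all genes with edgeR 4.0.16 (R 4.3.3, TMM scaling, filterByExpr at its defaults of 10 counts and 15 in total, quasi-likelihood test, two-sided, genotype only). The filter left 10889 of 31053 identifiers, which held 98.6 to 98.94% of the counts, and adjusted p-values cover all of them. Normalized CPM used TMM factors of 0.9712 to 1.057. Thresholds were those of the study, a log2 fold change over 0.75 in size and an unadjusted p under 0.05. Nothing in the labels says that replicates are separate animals, so p-values measure only the spread between these libraries. The members, lists and marker genes were chosen with earlier results of these data known. All members and their isozymes are named, and from each other list the genes past the thresholds or, where none passed, the one with the smallest p. Hif1a and the genes that passed only without KIKO replicate 2 were named after their values were seen.

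Names and positions came from GENCODE M21 on GRCm38, with 30934 identifiers named. Stretches of 75 bases were matched between transcripts of all genes. Shares within isozyme families and the summed level were compared by exact permutation of the library labels (scipy 1.17.1). The scripts were tested on simulated counts for 2 against 3 libraries, in which 200 genes were given a 4-fold change. Of these, 150 passed the thresholds and 3 had an adjusted p under 0.05. Among the unchanged genes, 428 passed the thresholds and 0 had an adjusted p under 0.05. A gene without an adjusted p under 0.05 here may therefore still differ. Alternatives were RLE factors, library size alone, looser and stricter filters, each library left out, a replicate block, DESeq2 1.42.0, and limma 3.58.1 on the deposited log2 values and with voom sample weights.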

Additional observations from a re-analysis of the deposited data

How the results depend on the processing

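Over all genes, 131 passed the thresholds, and the count was 383 (256 up, 127 down) when genes with 1 count or more entered the fit, 519 (203 and 316) with voom sample weights and 52 to 693 without 1 library, the lowest without WT replicate 1 and the highest without KIKO replicate 2. The number of glycolysis and lactate genes that passed was 0, and 1 with voom weights (Eno1, log2 fold change 0.92) and 0 to 1 without 1 library (Eno1 without KIKO replicate 2). Of the genes in the surrounding lists, 0 passed in the reported fit, 1 with library size alone and 1 with limma on the deposited log2 values (Pdk2 in both), 2 with voom weights (Slc16a7, Pdk2), 3 under that loosest filter (Slc2a6, Mdh1, Car9) and 0 to 3 without 1 library (Slc2a8 and Gyg without WT replicate 2, and Pdk2, Slc16a7 and Ugp2 without KIKO replicate 2). The median of the 9 genes was -0.04 to 0.16 without 1 library. Their summed level, higher in KIKO as a percent of counts, was -15.9 CPM in KIKO minus WT as normalized CPM, and -0.00775 to 0.0164 percentage points without 1 library. The isozyme differences without 1 library were -22.6 to -9.21 points for Hk2, -5.37 to 1.49 for Pfkp, -12.6 to -1.11 for Aldoa, 0.191 to 12 for Eno1 and -6.98 to -0.0837 for Ldha.

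With the replicate block, 271 genes passed (109 higher, 162 lower), none of the 9 among them and 2 of the surrounding lists (Bsg, Mdh1). Replicate 3 was analysed in KIKO only, so its block takes up that library. The genotype difference under the block thus rests on the 2 pairs of same-numbered libraries, without KIKO replicate 3. Pfkp (-0.26), Aldoa (-0.10) and Eno1 (-0.32) changed sign under the block, the median of the 9 genes was -0.15 with 3 above 0 and 6 below, and Hk2 was at -1.44 (adjusted p = 0.989). The labels do not say that numbers pair libraries, and the deviations of same-numbered libraries correlated at 0.18 and 0.239 in the 2 pairs. For a WT and a KIKO library of different numbers, the correlations were -0.239 to 0.218. The deviations of the 2 WT libraries mirror each other (correlation -1), so the pairs are not independent. Aldoa was at -0.00395 with limma on the deposited log2 values and Ldhb at -0.10 with voom weights.

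Without 1 library the log2 fold changes of the genes that turned were -0.179 to 0.408 for Pfkp, -0.16 to 0.259 for Aldoa, -0.0388 to 1.07 for Eno1, -0.664 to 0.0212 for Gpi1, -0.495 to 0.265 for Ldha and -0.132 to 0.228 for Ldhb. The sign turned without KIKO replicate 2 for Gpi1 and Ldhb, without KIKO replicate 3 for Eno1, without WT replicate 2 or KIKO replicate 1 for Ldha, and without 3 of the libraries each for Pfkp and Aldoa. The cause was not tested. Hk1, Hk2 and Pkm kept their direction under the 13 alternatives run. At 1013107 to 1351339 counts a library, genes of a few counts, such as Pgk1, could not be compared.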

Other observations

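Of the tested markers, 1 of 5 of astrocytes and 1 of 5 of endothelium passed the thresholds between KIKO and WT, beside 1.2% of all genes. Neither had an adjusted p under 0.05, and both were named after their values were seen. The other tested markers of these 2 lists did not pass, and the summed levels of both lists overlapped between the genotypes. Gfap, a filament protein of astrocytes, was at 19.9 and 9.86 CPM in WT and at 30.0, 44.8 and 36.5 CPM in KIKO (log2 fold change 1.33, adjusted p = 1.0, and 1.18 without KIKO replicate 2). The 7 astrocyte markers, 5 of them tested, summed to 201.2 to 352 CPM in WT and 295 to 373 CPM in KIKO. Kdr, a VEGF receptor of endothelium, was at 70.7 and 49.3 CPM in WT and at 27.6, 6.96 and 30.4 CPM in KIKO (log2 fold change -1.47, adjusted p = 1.0, and -1.04 without KIKO replicate 2), and 5 endothelial markers summed to 425 to 761 CPM in WT and 420 to 584 CPM in KIKO. None of the tested markers of microglia, neurons, Purkinje neurons, oligodendrocytes, choroid plexus, red blood cells or neutrophils and monocytes passed. The Purkinje neuron markers summed to 165 to 267 CPM in WT and 225 to 438 CPM in KIKO. The red blood cell markers summed to 1031 to 2749 CPM in WT and 1673 to 2920 CPM in KIKO. The 6 neutrophil and monocyte markers, 2 of them tested, summed to 16.9 to 31.1 CPM in WT and 32.5 to 95.4 CPM in KIKO. Ly6g, 1 of the 6, which defines neutrophils, was at 0 in every library.

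Gapdh, which shares 22.6% of its read-length stretches with other annotated genes, was at 63.8 and 64.5 CPM in WT and at 61.5, 73.4 and 32.5 CPM in KIKO. Pgam1, with 34.9% shared, was at 4.64 to 8.12 CPM and under the filter.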
